A study of Mus musculus with 12 samples.

Results

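The 10 genes described here are the transcription factor gene Nfe2l2, which encodes NRF2, and 9 of its known target genes, Nqo1, Hmox1, Slc7a11, Gclc, Gclm, Gsr, Txnrd1, Srxn1 and Prdx1. They were taken by name out of 54532 genes in the expression table. The list was chosen by the genotype differences in FPKM in these libraries, which for Nqo1 had opposite signs in the 2 media. The genotype differences of the 10 genes are therefore given as a description, without p-values. Counts of these genes past a threshold for genotype describe the fits and test nothing. Levels were measured by RNA-seq in cultures of bone marrow mesenchymal stem cells (MSCs), the stromal progenitors that can become bone or fat cells, grown from the marrow of femurs, tibiae and humeri of C57BL/6 mice at 4 weeks of age and used at passage 3.

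There were 4 groups of 3 libraries. Control cells came from Chd7 fl/fl mice, written WT in the labels. The cells labelled knockout (KO) came from Prx1-cre;Chd7 fl/fl mice, in which Cre is driven by a promoter of early limb mesenchyme and removes exon 2 of Chd7, a chromatin remodeller gene. Control mice thus carried the same floxed alleles without Cre. Both media contained dexamethasone, a glucocorticoid, but at different doses, 10 nM in the osteogenic and 1 µM in the adipogenic one. Ascorbic acid (50 µM) and β-glycerophosphate (10 mM) were the other osteogenic agents, and insulin (10 µg/ml) and isobutylmethylxanthine (0.5 µM) the other adipogenic ones. RNA was taken 5 days after induction. The labels do not say whether the libraries of a group came from separate mice or cultures, so the p-values measure the spread between these libraries only.

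Under resting conditions NRF2 is bound by KEAP1 and degraded. When oxidants or electrophiles modify KEAP1, NRF2 builds up, enters the nucleus with a small MAF partner and binds antioxidant response elements. Its targets make glutathione, reduce thioredoxin and peroxiredoxins, detoxify quinones and break down heme, and the repressor BACH1 competes for the same sites, most of all at Hmox1. NRF2 is controlled largely through protein stability, so the Nfe2l2 transcript need not follow its activity.

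The core of the antioxidant response element, TGACNNNGC, was looked for on both strands in the RefSeq promoters (GRCm38.p6, 250 bases before to 50 after a start) of 7 of the 10 genes. Entries for Hmox1, Gclc and Gsr were not used here. The core was found for 5 of the 7 genes, Nfe2l2, Gclm, Prdx1, Srxn1 and Txnrd1, and for Txnrd1 at 1 of its 3 starts. Counted by promoter, it was in 5 of the 9 of these genes and in 12.4% of all 32851. Counted by gene, it was at 14 of 66 others of the pathway. The match in Srxn1 lay after the start. The 250 bases before the start are shown for Nqo1, the gene with the opposite differences, which has no match in this window, and for Nfe2l2, Gclm and Prdx1, which have one. Capitals mark the core, read on the printed strand in Nfe2l2 and as its reverse complement in Gclm and Prdx1. The windows are chr8:107403206-107403455 on the minus strand for Nqo1, chr2:75704664-75704913 on the minus strand for Nfe2l2, chr3:122245307-122245556 on the plus strand for Gclm and chr4:116685349-116685598 on the plus strand for Prdx1.
Nqo1: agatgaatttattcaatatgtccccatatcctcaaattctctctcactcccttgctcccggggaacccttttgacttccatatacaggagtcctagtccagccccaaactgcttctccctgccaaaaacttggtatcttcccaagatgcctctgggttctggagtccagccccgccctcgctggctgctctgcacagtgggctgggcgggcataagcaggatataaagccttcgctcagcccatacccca
Nfe2l2: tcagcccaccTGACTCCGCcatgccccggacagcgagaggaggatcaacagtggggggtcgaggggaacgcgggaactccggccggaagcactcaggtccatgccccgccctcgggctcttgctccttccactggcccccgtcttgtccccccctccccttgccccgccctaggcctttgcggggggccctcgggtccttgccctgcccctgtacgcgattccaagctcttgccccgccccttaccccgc
Gclm: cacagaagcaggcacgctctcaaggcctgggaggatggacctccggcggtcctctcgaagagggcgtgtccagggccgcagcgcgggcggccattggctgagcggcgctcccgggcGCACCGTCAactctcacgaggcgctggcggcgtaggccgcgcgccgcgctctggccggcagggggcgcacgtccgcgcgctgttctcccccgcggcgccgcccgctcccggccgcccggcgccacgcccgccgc
Prdx1: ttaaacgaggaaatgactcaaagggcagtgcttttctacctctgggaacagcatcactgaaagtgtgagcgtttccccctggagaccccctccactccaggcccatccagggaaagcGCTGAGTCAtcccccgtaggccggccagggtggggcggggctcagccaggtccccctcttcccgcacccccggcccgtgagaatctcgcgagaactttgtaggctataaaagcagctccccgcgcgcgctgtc
The first base of the core lay 240 bases before the start in Nfe2l2. A match is a description of these letters and was not tested as a binding site.

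The authors' values are FPKM, a count of fragments divided by gene length and by a factor for each library, so levels can be compared between genes. The smallest steps between values gave back this factor, and with it 17496281 to 21099353 fragments on genes in a library. Of the values under 30 fragments, 98.2% to 98.4% were whole to within 0.02 of a fragment, against 4% by chance. The 10 genes had at least 71 recovered fragments in every library, the lowest being Nqo1. Chd7 itself had 2.69 ± 0.0682 FPKM (SD, n = 3) in control and 2.22 ± 0.166 in knockout osteogenic cultures, and 2.10 ± 0.255 and 2.29 ± 0.235 in the adipogenic ones. In limma, a linear model fitted over 12871 genes on log2(FPKM + 1), its log2 fold change was -0.20 (adjusted p = 0.160) and 0.09 (adjusted p = 0.428). A gene total does not show the loss of a single exon, but Chd7 was not lower in the adipogenic libraries that carry the knockout label, so the genotype is given as a label throughout.

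In adipogenic medium, control library 2 stood apart from the others of its group. Its correlation with control libraries 1 and 3 over genes was 0.939 and 0.943, while these 2 correlated at 0.989, and knockout library 1 correlated at 0.980 and 0.981 with its own group. The cultures also held much RNA of macrophage genes. The 10 macrophage markers (Ptprc, Cd68, Csf1r, Adgre1, Itgam, Cd14, Fcgr3, Tyrobp, Lyz2, Laptm5) were all expressed in every library, and their FPKM summed to 11740 to 12205 in control and 13465 to 13735 in knockout osteogenic libraries, 7982 to 17788 in control adipogenic and 5721 to 7137 in knockout adipogenic libraries. Control library 2 was the lowest of its group. In osteogenic medium Lyz2 alone held 8957 to 9355 FPKM in control and 11033 to 11249 FPKM in knockout libraries. Lyz2 was the 1 macrophage marker with a positive log2 fold change there, beside 9 with a negative one. The 8 stromal markers summed to 1250 to 1423, 1393 to 1542, 1609 to 1876 and 1730 to 1783 FPKM in the same order of groups. Most of each sum came from Col1a1, Col1a2 and Itgb1. In adipogenic medium 3 of 7 tested stromal markers were called higher and 1 lower with the knockout label. The shares of all tested genes were 16.7% and 16.5%. The lowest of the 8 was Thy1, a usual MSC surface marker, which stayed at or below 1.03 FPKM. Other MSC surface markers among the 8 were expressed, such as Itgb1 at 317 to 412 FPKM and Eng at 12.7 to 23.2 FPKM. Of the adipocyte markers, Adipoq, Plin1, Cidec and Lep were too low to test, with 0.600 FPKM as the highest value in any library. The other 2, the fatty acid carrier gene Fabp4 and the lipase gene Lpl, were both lower with the knockout label in osteogenic and both higher in adipogenic medium. Fabp4 was at 33.7 to 36.0 FPKM in control and 19.8 to 22.5 FPKM in knockout osteogenic libraries, and at 12.7 to 19.6 and 35.2 to 39.2 FPKM in the adipogenic ones. Mean Lpl was 111, 58.9, 58.1 and 75.6 FPKM in the same order. The 6 adipocyte markers summed to 137 to 153, 74.8 to 85.8, 66.9 to 85.4 and 105 to 121 FPKM, and their part in the NRF2 gene differences was not tested. Endothelial markers were near 0, at 2.55 to 2.68, 7.18 to 7.63, 3.54 to 4.38 and 5.99 to 7.56 FPKM summed over 6 genes in the same order of groups. With the knockout label in osteogenic medium 3 of their 4 tested genes were higher, beside 4.94% of all tested genes. In bulk RNA, fewer cells of a type and less RNA per cell cannot be told apart.

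Nqo1 encodes an NADPH-dependent quinone reductase and is a classic readout of NRF2. It was measured at 10.8, 10.3 and 11.9 FPKM in the control and at 30.8, 32.8 and 34.7 FPKM in the knockout osteogenic libraries. In adipogenic medium, control libraries held 22.7, 25.1 and 26.9 FPKM and knockout libraries 2.64, 2.60 and 2.41 FPKM. The order of the groups was knockout osteogenic, control adipogenic, control osteogenic and knockout adipogenic, and no 2 neighbours in it overlapped. On the mean FPKM, the knockout label went with a 2.98-fold higher level in osteogenic medium and the control label with a 9.77-fold higher level in adipogenic medium. The log2 fold changes of knockout against control were 1.49 (SE 0.0729) and -2.87 (SE 0.0729), a difference between the media of -4.36 (SE 0.103). Here and below, all groups share an estimate of the spread of a gene, so the SE in osteogenic medium also carries the adipogenic spread. Nqo1 did not follow the split of the control adipogenic libraries, where the mean of libraries 1 and 3 was 0.986 times that of library 2.

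**Figure D1:**
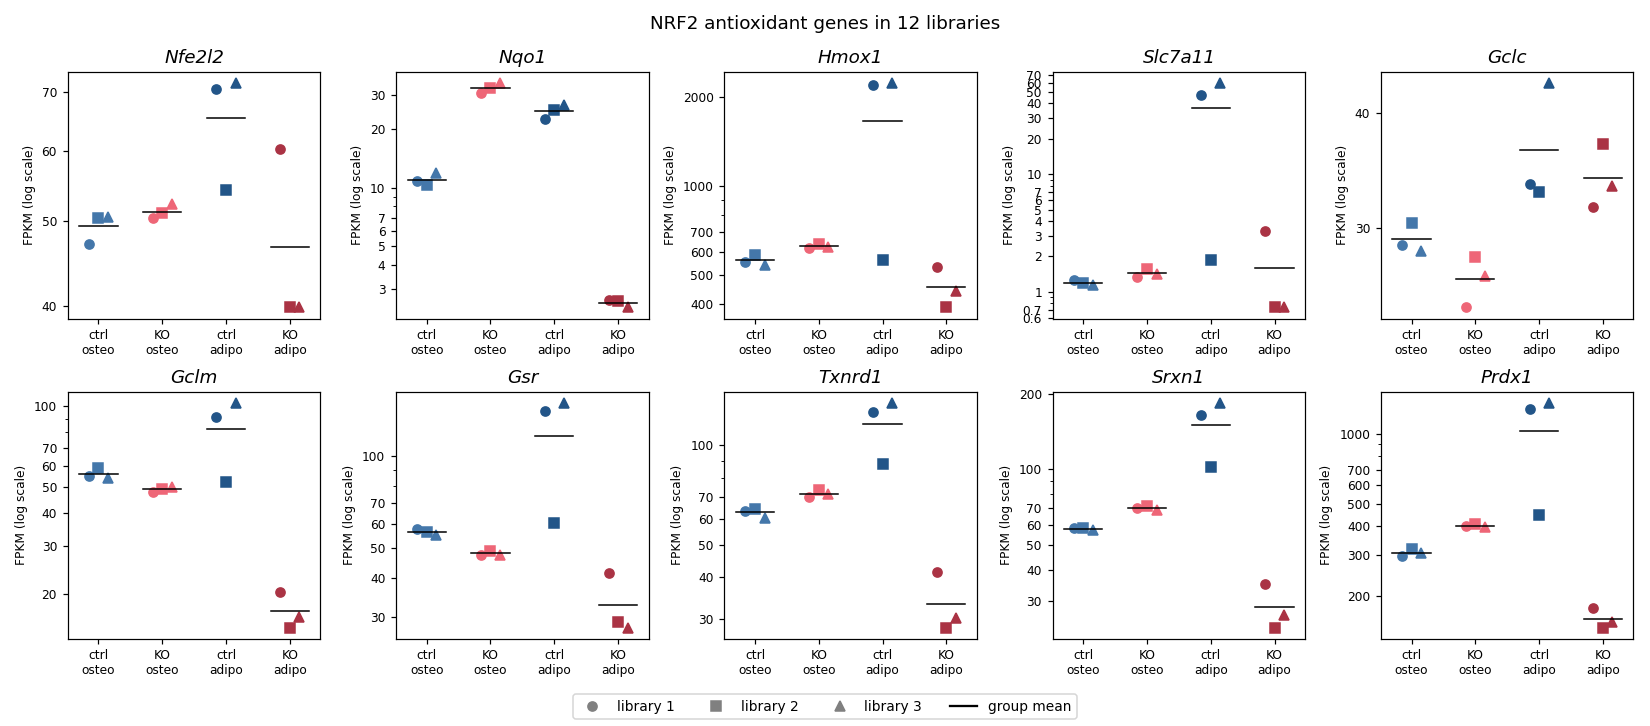
FPKM of the 10 NRF2 genes in each of the 12 libraries (y axis, log scale, a separate range for each gene) by group (x axis: ctrl, control; KO, labelled knockout; osteo and adipo, the medium). Symbols are libraries 1 to 3 and lines are group means: Nqo1 is tight within each group, while in control adipogenic cells most other genes have library 2 below libraries 1 and 3, as for Prdx1 with 447 against 1282 and 1356 FPKM.

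The level of Nfe2l2 itself was 47.0, 50.4 and 50.5 FPKM in control and 50.3, 51.0 and 52.3 FPKM in knockout osteogenic libraries, with overlapping groups. The adipogenic groups overlapped too, at 70.6, 54.2 and 71.7 FPKM in control and 60.3, 39.8 and 39.9 FPKM in knockout libraries. Its log2 fold changes with the knockout label were 0.05 and -0.50 (SE 0.152 for both), and -0.82 (SE 0.0401) in adipogenic medium without control library 2 and knockout library 1. The transcription factor's transcript spanned 39.8 to 71.7 FPKM over all libraries, a narrower range than that of any of its listed targets apart from Gclc.

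Glutathione synthesis starts with cystine, which Slc7a11 imports, and with glutamate cysteine ligase, whose catalytic and modifier subunits are encoded by Gclc and Gclm. Slc7a11 was low in osteogenic medium, at 1.27, 1.18 and 1.14 FPKM in control and 1.35, 1.57 and 1.41 FPKM in knockout cultures. In adipogenic medium it was at 47.4, 1.88 and 59.6 FPKM in control and 3.29, 0.739 and 0.737 FPKM in knockout libraries, so the high mean of the control group came from libraries 1 and 3, which averaged 28.5 times library 2. Knockout library 1 exceeded control library 2, and the adipogenic groups overlapped, with a log2 fold change of -3.12 (SE 0.933). Without control library 2 it was -4.53.

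The 2 subunits of the ligase did not move alike. Gclm was at 54.9, 58.8 and 53.9 FPKM in control and 47.8, 49.1 and 50.1 FPKM in knockout osteogenic libraries, and at 91.2, 52.1 and 103 FPKM and 20.3, 14.9 and 16.4 FPKM in the adipogenic groups. The groups did not overlap in either medium, with log2 fold changes of -0.18 and -2.14 (SE 0.207). Gclc stayed between 24.6 and 43.1 FPKM in all 12 libraries. It was at 28.8, 30.4 and 28.4 FPKM in control and 24.6, 27.9 and 26.6 FPKM in knockout osteogenic libraries, which did not overlap. The adipogenic groups overlapped, at 33.5, 32.8 and 43.1 FPKM and 31.7, 37.0 and 33.3 FPKM, and the log2 fold change of -0.09 (SE 0.0998) turned to 0.10 when all libraries were scaled to one total of FPKM (TPM) and to 0.03 without control adipogenic library 3. Gsr, which reduces oxidised glutathione with NADPH, was at 57.8, 56.4 and 55.4 FPKM in control and 47.6, 49.1 and 47.7 FPKM in knockout osteogenic libraries. In adipogenic medium it was at 140, 60.7 and 148 FPKM in control and 41.6, 28.9 and 27.7 FPKM in knockout libraries. The knockout libraries lay below the controls in both media, by log2 fold changes of -0.23 and -1.72 (SE 0.285).

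The thioredoxin branch is represented by Txnrd1, the cytosolic thioredoxin reductase, Prdx1, a peroxiredoxin that removes hydrogen peroxide, and Srxn1, which repairs overoxidised peroxiredoxins. Txnrd1 was at 63.4, 64.4 and 60.5 FPKM in control and 69.8, 73.4 and 71.4 FPKM in knockout osteogenic libraries, and at 126, 88.1 and 134 FPKM and 41.5, 28.3 and 30.2 FPKM in adipogenic medium. For Srxn1 the values were 58.2, 58.3 and 57.5 FPKM, 70.5, 71.7 and 68.8 FPKM, 165, 102 and 183 FPKM, and 35.2, 23.5 and 26.4 FPKM in the same order of groups. Prdx1, the second most abundant of the 10, was at 296, 317 and 307 FPKM, 399, 408 and 397 FPKM, 1282, 447 and 1356 FPKM, and 176, 146 and 154 FPKM. All 3 genes shared the pattern of Nqo1, with knockout libraries above the controls in osteogenic medium and below them in adipogenic medium and no overlap in either. The differences in osteogenic medium were small beside those of Nqo1, with ratios of mean FPKM of 1.14, 1.21 and 1.31 and log2 fold changes of 0.19 (SE 0.162), 0.27 (SE 0.197) and 0.39 (SE 0.334). These SE values include the split of the control adipogenic libraries and are not the spread of the osteogenic libraries alone. In adipogenic medium the log2 fold changes were -1.77, -2.34 and -2.53, and control means were 3.49, 5.29 and 6.48 times the knockout means. Control library 2 was still at least 2.12 times the highest knockout library for each of them.

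Hmox1, the inducible heme oxygenase, was the most abundant of the 10. It was at 556, 587 and 542 FPKM in control and 620, 639 and 625 FPKM in knockout osteogenic libraries. In adipogenic medium control libraries 1 and 3 reached 2208 and 2236 FPKM while library 2 held 565 FPKM, and knockout libraries held 532, 389 and 443 FPKM. The groups did not overlap, but library 2 was 1.06 times the highest knockout library. The log2 fold change was 0.16 in osteogenic and -1.64 in adipogenic medium (SE 0.424), and -2.30 in the latter without control library 2.

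**Figure D2:**
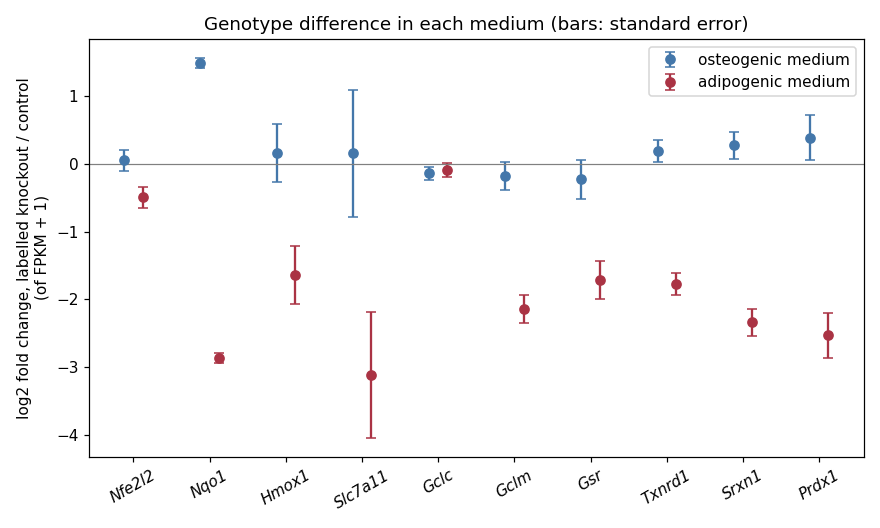
Log2 fold change of FPKM + 1, labelled knockout against control (y axis), of the 10 NRF2 genes (x axis) in osteogenic and adipogenic medium. Points are limma estimates, and bars are their standard errors, from a spread shared by the groups over all 12 libraries. Nqo1 is at 1.49 and -2.87, Gclc is near 0 in both media, and Slc7a11 has the widest error, 0.933.

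Counted over the 10 genes, knockout libraries lay wholly above control libraries in osteogenic medium for 6 and wholly below for 3, beside 21.0% and 23.2% of all tested genes (44.3% in either direction). In adipogenic medium they lay wholly below for 7, wholly above for 0 and overlapped for Nfe2l2, Slc7a11 and Gclc, beside 18.4% of all tested genes wholly below and 20.2% wholly above (38.6% in either direction). Without control library 2, 9 lay wholly below and 1 overlapped, beside 34.2% wholly below and 31.9% wholly above, and without knockout library 1 the member counts were also 9 and 1, beside 24.4% and 25.2%. Nqo1, Hmox1, Txnrd1, Srxn1 and Prdx1 were above in osteogenic and below in adipogenic medium, as were 598 of all tested genes (4.65%). At an adjusted limma p under 0.05, 1 of the 10 (Nqo1) was called higher in osteogenic medium, where 4.94% of all tested genes were (9.09% in either direction), and 9 were called lower in adipogenic medium, where 16.5% were (33.2% in either direction). The interaction of genotype and medium was called negative for 6, beside 9.58% (20.4% in either direction). Since these differences chose the list, nothing is read from these counts or from those of the other fits below. The median log2 fold change of the 10 was 0.16 in osteogenic and -1.95 in adipogenic medium, beside -0.01 over all tested genes in both. The number called in osteogenic medium was 7 when only the 6 osteogenic libraries were fitted, where 26.6% of all tested genes were called. It was also 7 without control library 2 and knockout library 1 of adipogenic medium, beside 27.8%, and 2 without that control library alone, beside 22.2%. In adipogenic medium it was 6 when only the 6 adipogenic libraries were fitted, beside 13.0%. The macrophage markers moved with the genotype too, with 1 of 10 called lower in osteogenic and 7 of 10 in adipogenic medium. Of all tested genes, 4.15% and 16.5% were lower. The part of these markers in the NRF2 gene differences was not tested.

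The split of the control adipogenic libraries ran through 8 of the 10 genes. Libraries 1 and 3 averaged 28.5 times library 2 for Slc7a11, 3.93 times for Hmox1, 2.95 for Prdx1, 2.37 for Gsr, 1.86 for Gclm, 1.71 for Srxn1, 1.48 for Txnrd1 and 1.31 for Nfe2l2. The ratio was 1.17 for Gclc, whose library 1 was close to library 2, and 0.986 for Nqo1. Macrophage genes divided the same libraries unequally. Adgre1, which encodes the macrophage surface protein F4/80, was at 1171, 227 and 1136 FPKM, and Cd14, a receptor for bacterial lipopolysaccharide, at 269, 26.2 and 267 FPKM, while Cd68, a lysosomal macrophage marker, was at 517, 861 and 491 FPKM. Knockout library 1 differed from knockout libraries 2 and 3 in the same direction for Slc7a11 (4.46 times their mean), Nfe2l2 (1.51), Gsr (1.47), Txnrd1 (1.42) and Srxn1 (1.41), and for Cd14 it held 121 FPKM beside 32.4 and 37.8.

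**Figure D3:**
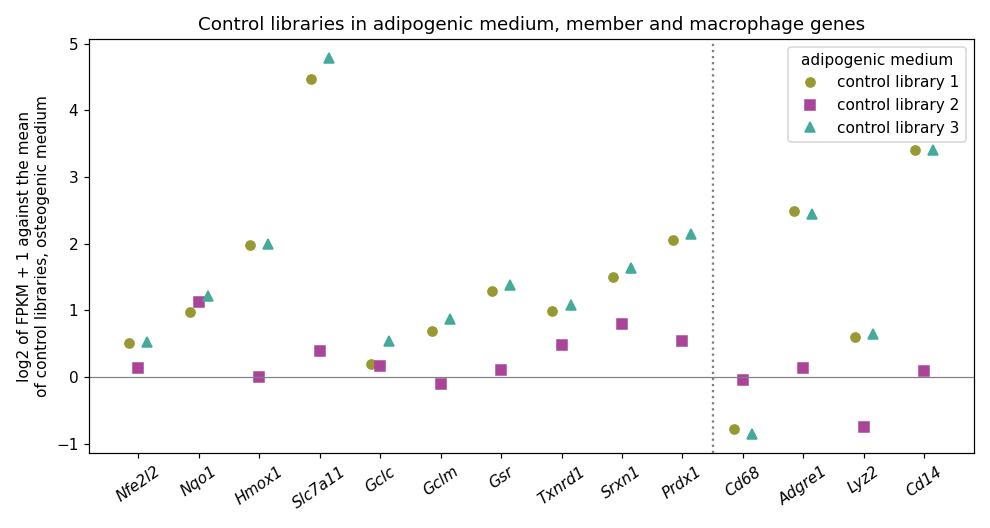
Level of the 10 NRF2 genes and of 4 macrophage genes (x axis, divided by the dotted line) in each control library of adipogenic medium, as the log2 of FPKM + 1 over that of the mean of the 3 control libraries in osteogenic medium (y axis). Each symbol is 1 library: library 2 lies below libraries 1 and 3 for most genes, for Slc7a11 at 1.88 against 47.4 and 59.6 FPKM, but not for Nqo1 or Cd68.

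The effect of the medium, averaged over the genotype labels, was not used to choose the genes and was tested in limma with all 12 libraries. Of the 10 genes, 1 was higher and 2 were lower in adipogenic medium, while 14.9% of all tested genes were higher and 16.5% lower (31.5% in all). Gclc rose by 0.33 (SE 0.0706, log2 scale, adjusted p = 0.00731), and both labels shared the direction, with 0.30 in control and 0.35 in knockout cells. It kept its call in all 19 alternative settings. Nqo1 fell by 1.07 (SE 0.0516, adjusted p = 1.88e-06) on average, also called in all 19 settings, but it was 1.11 higher in control and 3.25 lower in knockout cells. An average over opposite changes describes neither label. Gclm fell by 0.49 (SE 0.147, adjusted p = 0.0298) on average, again with opposite values of 0.49 in control and -1.47 in knockout cells. Its adjusted p ranged from 6.65e-05 to 0.0673 over 19 settings, it was called in 9 of them, and the call was lost on leaving out any 1 osteogenic library or adipogenic knockout library 2 or 3.

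The other 7 genes did not pass this test. Srxn1 had a medium effect of 0.01 (adjusted p = 0.979) made of 1.31 in control and -1.30 in knockout cells, and Txnrd1 one of -0.12 (adjusted p = 0.436) made of 0.85 and -1.10. Prdx1 had 0.12 (adjusted p = 0.719), from 1.58 and -1.34. For Nfe2l2 it was 0.12 (adjusted p = 0.427), for Gsr 0.18 (adjusted p = 0.527), for Hmox1 0.42 (adjusted p = 0.302) and for Slc7a11 1.58 (adjusted p = 0.0934). In control and knockout cells Nfe2l2 had 0.39 and -0.16, and Gsr 0.92 and -0.57. Hmox1 had 1.33 and -0.48, and Slc7a11 3.21 and -0.06. Leaving out control adipogenic library 2 brought 4 of these 7 past the threshold. In that fit 51.6% of all tested genes were called, 27.6% higher and 24.0% lower. Hmox1 was then 0.75 higher in adipogenic medium (adjusted p = 1.73e-05), Slc7a11 2.28 higher (adjusted p = 2.47e-05), Gsr 0.38 higher (adjusted p = 0.00603) and Prdx1 0.38 higher (adjusted p = 0.000118). These are averages over the labels too, and the knockout values above do not change when a control library is left out.

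Beyond the 10 genes, 75 further genes of the NRF2 pathway and its neighbours were listed, and 71 passed the filter on low values, 1 FPKM in at least 3 libraries. Bach2, Gpx2, Abcc2 and Pir did not. In osteogenic medium, 6 of the 71 were higher and 4 lower with the knockout label, beside 4.94% and 4.15% of all tested genes, and the median log2 fold change was 0.07. These counts were 18 and 10 without control adipogenic library 2, beside 11.4% and 10.8%. When any 1 osteogenic library was left out, 4 to 6 of the 71 were called in all. Those fits called 532 to 670 of all 12871 tested genes, against 1170 in the main fit. In adipogenic medium 6 of the 71 were higher and 38 lower, beside 16.7% and 16.5% of all tested genes. Their median was -0.37, beside -0.01 over all tested genes. When all libraries were scaled to one total of FPKM, the median of all tested genes moved to 0.16 and the adipogenic counts to 11 higher and 29 lower. Of all 12871 tested genes, 3235 were then higher and 895 lower, against 2153 and 2123 in the main fit. With only the 6 adipogenic libraries fitted the pathway counts were 3 and 23, beside 7.87% and 5.11%. The interaction was called for 2 with a positive and 30 with a negative sign, beside 10.9% and 9.58%, and for 8 and 48 without control adipogenic library 2, beside 19.7% and 22.5%. This list was drawn up with the adipogenic results of the 10 genes known and is no independent support for their direction.

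The next genes regulate NRF2 or bind DNA with it. Keap1, the sensor, was at 12.3 ± 0.210 FPKM (SD, n = 3 libraries) in control and 10.9 ± 0.0653 FPKM in knockout osteogenic libraries, a log2 fold change of -0.15 (adjusted p = 0.183). It was lower with the knockout label in adipogenic medium, by -0.26 (adjusted p = 0.0113), a call lost when libraries were scaled to one total or only the 6 adipogenic libraries were fitted. Bach1, the repressor, had -0.25 (adjusted p = 0.0935) in osteogenic medium and fell with the label by 0.54 (adjusted p = 0.000999) in adipogenic medium, from 20.4, 15.6 and 19.5 FPKM to 12.5, 12.2 and 12.4 FPKM. Mafg, a DNA-binding partner, was lower in both media, by -0.27 (adjusted p = 0.0479) and -0.38 (adjusted p = 0.00399). The first of these calls held in 7 of 20 settings and the second in 19. Mafk, another partner, differed between the media, with an interaction of 0.66 (adjusted p = 0.0207) that was lost on leaving out control osteogenic library 2, knockout osteogenic library 3 or knockout adipogenic library 3. Sqstm1, which encodes the KEAP1-binding autophagy receptor p62 and is itself a known NRF2 target, was at 456, 198 and 460 FPKM in control and 196, 122 and 128 FPKM in knockout adipogenic libraries. The groups did not overlap, though control library 2 lay close to knockout library 1, and the gene fell with the knockout label by 1.25 on the log2 scale (adjusted p = 0.00896), a call lost when only the 6 adipogenic libraries were fitted (adjusted p = 0.0840). Sqstm1 was singled out after its values were seen. Of the 11 tested genes of this list, 1 was higher and 4 were lower with the knockout label in adipogenic medium. The shares of all tested genes were 16.7% and 16.5%.

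A list of 6 genes covered the supply of NADPH, the cofactor of NQO1, glutathione reductase and thioredoxin reductase. Taldo1 and Tkt in it encode enzymes of the pentose phosphate pathway that do not themselves make NADPH. With the knockout label in adipogenic medium 5 of the 6 were lower, beside 16.5% of all tested genes. The remaining one was Idh1, at -0.19 (adjusted p = 0.0800). In osteogenic medium Me1, malic enzyme, was higher by 0.52 (adjusted p = 0.000427), at 22.5, 23.9 and 26.4 FPKM beside 17.0, 16.6 and 15.9 FPKM in the controls. Taldo1, transaldolase, was lower there by -0.22 (adjusted p = 0.0305), a call lost on leaving out any osteogenic library. In adipogenic medium both fell with the label, by 0.32 for Me1 (adjusted p = 0.00174) and 0.86 for Taldo1 (adjusted p = 4.57e-06).

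Among 18 tested glutathione enzymes, 4 were higher and 7 lower with the knockout label in adipogenic medium, beside 16.7% and 16.5% of all tested genes. Gsta3, a glutathione S-transferase, fell by 2.76 (adjusted p = 0.000731), from 13.4, 3.54 and 13.7 FPKM to 1.19, 0.171 and 0.206 FPKM. Gpx3, the secreted glutathione peroxidase, went the other way from Nqo1 in both media. It was at 169, 175 and 180 FPKM in control and 134, 133 and 135 FPKM in knockout osteogenic libraries, a fall of 0.38 (adjusted p = 0.00443) that was lost when libraries were scaled to one total. In adipogenic medium it rose from 107, 113 and 96.8 FPKM to 157, 163 and 175 FPKM, by 0.64 (adjusted p = 6.41e-05), and the interaction was 1.02 (adjusted p = 6.00e-05). Gpx8, a peroxidase of the endoplasmic reticulum, rose by 0.50 (adjusted p = 0.00137) in adipogenic medium, and Gstm2, a transferase, rose by 0.39 (adjusted p = 0.00358) in osteogenic medium. Mgst3, a microsomal transferase, was higher in adipogenic medium by 1.06 (adjusted p = 0.0338), but its control libraries were split at 9.15, 28.2 and 8.95 FPKM and the call was lost on leaving out any of 5 adipogenic libraries, all but control library 2.

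Of the 10 thioredoxin and peroxiredoxin genes, 6 were lower and 0 higher in adipogenic medium at the limma threshold. The shares of all tested genes were 16.5% and 16.7%. Txnip, which binds thioredoxin and restrains glucose uptake, was the largest fall of the pathway in osteogenic medium, from 44.5, 44.6 and 42.8 FPKM to 27.3, 29.2 and 29.0 FPKM, by 0.61 (adjusted p = 0.000568). Txnrd3, a thioredoxin and glutathione reductase, was higher there by 0.32 (adjusted p = 0.0159), a call that failed on leaving out 4 of the 12 libraries. Prdx6, a peroxiredoxin that uses glutathione, resembled Prdx1. It was at 26.9, 27.9 and 27.3 FPKM in control and 40.4, 42.3 and 40.5 FPKM in knockout osteogenic libraries, and at 59.3, 33.1 and 69.8 FPKM and 21.1, 19.2 and 19.1 FPKM in adipogenic medium, with an interaction of -1.90 (adjusted p = 0.00169).

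Detoxification enzymes and export pumps were lower for 11 of 17 tested genes in adipogenic medium and higher for 1. All tested genes were lower for 16.5% and higher for 16.7%. Blvrb, a biliverdin reductase that acts after heme oxygenase, fell by 2.20 (adjusted p = 8.54e-05), from 108, 55.8 and 103 FPKM to 22.6, 16.2 and 15.5 FPKM, with an interaction of -2.21 (adjusted p = 0.00114). Abcc1, an exporter of glutathione conjugates, had an interaction of -1.79 (adjusted p = 0.00707), at 13.5, 13.6 and 13.4 FPKM in control and 16.8, 17.0 and 16.8 FPKM in knockout osteogenic libraries against 42.3, 18.6 and 43.4 FPKM and 12.6, 10.1 and 10.1 FPKM in adipogenic medium. Ugdh, which makes UDP-glucuronic acid, was higher by 0.31 in osteogenic medium (adjusted p = 0.0234), a call lost on leaving out any of 5 osteogenic libraries, all but knockout library 1. The exception in adipogenic medium was Ephx1, microsomal epoxide hydrolase, which rose by 0.59 (adjusted p = 0.000824).

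Heme and iron genes were lower for 3 of 5 in adipogenic medium, beside 16.5% of all tested genes. Fth1, the ferritin heavy chain, went from 22380, 9510 and 21636 FPKM to 7751, 4511 and 5097 FPKM, a fall of 1.56 (adjusted p = 0.00347) that was lost without the filter on low values and with only the 6 adipogenic libraries. Of the 4 superoxide dismutases and catalase, 2 were lower, beside the same share. Cat, catalase, fell by 1.92 (adjusted p = 6.98e-07), from 221, 260 and 236 FPKM to 71.6, 57.9 and 58.4 FPKM, and like Nqo1 it did not have control library 2 below the others.

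**Figure D4:**
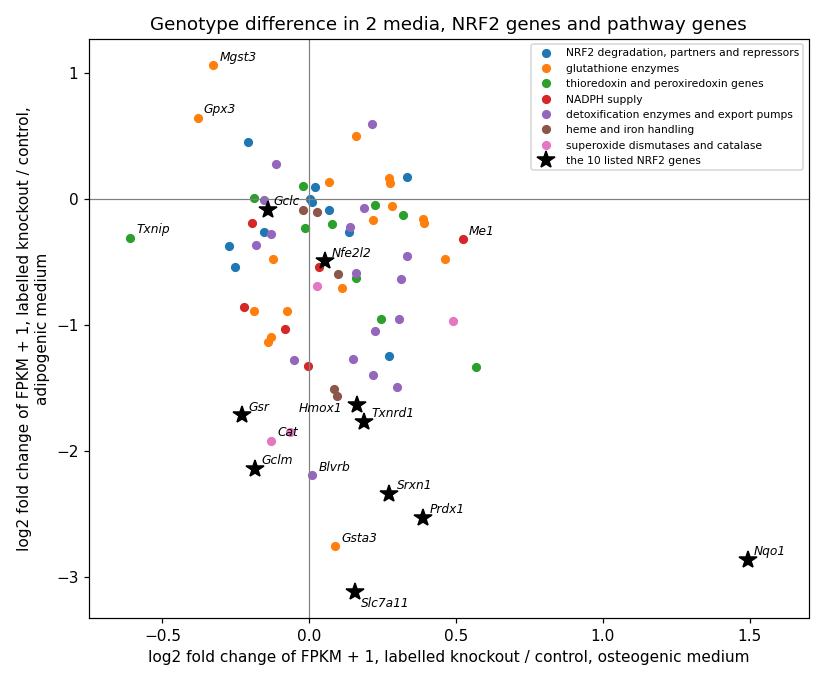
Log2 fold change of FPKM + 1, labelled knockout against control, in osteogenic (x axis) and adipogenic medium (y axis) for the 10 NRF2 genes (stars) and 71 tested pathway genes (dots, coloured by list). Most points lie below 0 on the y axis, Nqo1 stands alone at the lower right at 1.49 and -2.87, and Gpx3 lies in the opposite quadrant at -0.38 and 0.64.

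Averaged over the genotype labels, 18 of the 71 genes fell and 11 rose in adipogenic relative to osteogenic medium, beside 16.5% and 14.9% of all tested genes. Without control adipogenic library 2, 23 fell and 28 rose, beside 24.0% and 27.6%. The largest increases were Maff, a small MAF gene, by 0.73 (adjusted p = 0.000532), Gsta4 by 0.57 (adjusted p = 0.00268) and Gstt1 by 0.55 (adjusted p = 0.000526), both glutathione S-transferases, and Gpx7 by 0.50 (adjusted p = 0.00230), a peroxidase of the endoplasmic reticulum. The largest decreases were Slc40a1, the iron exporter ferroportin, by 1.40 (adjusted p = 0.000448), Cat by 0.95 (adjusted p = 1.27e-05), the pump gene Abcc3 by 0.66 (adjusted p = 0.000285) and Mgst1, a microsomal transferase, by 0.59 (adjusted p = 0.00109).

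Genes of 2 other transcription factors were listed as well, and the part of either factor in the levels of the 10 genes was not tested. Slc7a11 is also a target of the stress factor ATF4. Of 9 other ATF4 stress genes, 7 were higher and 0 lower in adipogenic medium averaged over the labels, beside 14.9% and 16.5% of all tested genes. With the knockout label in adipogenic medium 3 were higher and 0 lower, beside 16.7% and 16.5%. Nqo1 is also a target of the aryl hydrocarbon receptor. Of 4 tested genes of that list, 1 was higher in osteogenic and 3 were lower in adipogenic medium with the knockout label. The shares of all tested genes were 4.94% and 16.5%. Ahr, the receptor itself, was the gene higher in osteogenic medium, at 2.03 ± 0.0362 FPKM (SD, n = 3 libraries) beside 1.22 ± 0.0705 FPKM in controls (log2 fold change 0.45, adjusted p = 0.0187), and it fell by 0.99 (adjusted p = 7.26e-05) in adipogenic medium, from 3.04, 2.22 and 3.03 FPKM to 0.769, 1.08 and 0.837 FPKM. Ahr was singled out after its values were seen.

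Across the 12 libraries, the genes whose log2(FPKM + 1) was most like that of Nqo1 by Pearson's r were Sfrp4 (0.992), a secreted antagonist of Wnt signalling, Nr1d2 (0.985), a nuclear receptor of the circadian clock, Hjurp (0.976), a chaperone of the centromeric histone, Clec7a (0.976), the fungal pattern receptor dectin-1 of myeloid cells, and Ggt5 (0.975), a gamma-glutamyltransferase. The 12 libraries share 4 groups, so these values describe the order of the groups. Mean levels of Clec7a were 22.9, 49.5, 33.6 and 12.3 FPKM in control osteogenic, knockout osteogenic, control adipogenic and knockout adipogenic libraries. None of the other 9 NRF2 genes was among these 5. Txnrd1 came nearest with 0.846 at rank 270 of 12870, followed by Gclm (0.823), Srxn1 (0.816), Prdx1 (0.762), Gsr (0.598), Hmox1 (0.508), Nfe2l2 (0.502), Slc7a11 (0.334) and Gclc (-0.30). Fkbp5, a gene induced by glucocorticoids, ran opposite to Nqo1 with r of -0.87, at means of 31.5 and 6.46 FPKM in control and knockout osteogenic libraries and 4.35 and 38.2 FPKM in adipogenic medium.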

How the data were processed

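The authors deposited 1 table of FPKM for 12 libraries. The study's methods name NEBNext Ultra libraries, an Illumina HiSeq, FastQC and the FASTX toolkit, and its reporting form lists HISAT2 and Ballgown, while the submitters' processing notes name Bowtie 0.12.2 and mm9. The build behind the table was therefore not settled, and the use of strand is not given in the sources used here. Columns were assigned to libraries by name. Symbols, matched for 54409 of 54532 gene identifiers, and exonic lengths came from GENCODE M21 (GRCm38).

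Genes with at least 1 FPKM in at least 3 libraries (12871) entered a limma fit (version 3.58.1, R 4.3.3) of log2(FPKM + 1) on the 4 group means with eBayes trend. P-values were adjusted by Benjamini-Hochberg and called at 0.05. The 1 FPKM added before taking log2 understates changes of low genes. Contrasts compared the genotype labels within each medium, their interaction, and adipogenic against osteogenic medium averaged over the labels. Each was refitted under other settings, with the main shifts given at the end. Among these settings, median-ratio scaling had factors of 1.0010 to 1.0012 in all 12 libraries. It changed almost nothing and is no separate check. Motifs and figures were made with Python 3.11.15.

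The named genes are all 10 members, in each contrast up to 4 called pathway genes with the largest positive and up to 4 with the largest negative change, Keap1, Bach1, Mafg, Chd7, Fkbp5 and the 5 genes most like Nqo1. Pathway genes beyond this rule are named as list members or said to be chosen after their values were seen. The members and lists were chosen with earlier results of these data known. Amplification copies of 1 molecule count as separate fragments, so any floor covers counting error only, and 3 fragments on 1 kilobase correspond to 0.143 to 0.185 FPKM.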

Additional observations from a re-analysis of the deposited data

Results flagged for a closer look

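The difference between the knockout and control labels had opposite signs in the 2 media, with no overlap of libraries in either, for 5 of the 10 genes, and the difference of the log2 fold changes, adipogenic minus osteogenic, was -4.36 for Nqo1, -1.80 for Hmox1, -1.95 for Txnrd1, -2.61 for Srxn1 and -2.92 for Prdx1. These differences chose the list, so no p is given for them, and whether they differ was not tested independently of that choice. For Hmox1 the value was -2.46 and for Prdx1 -3.44 without control adipogenic library 2.

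For 6 pathway genes the limma interaction passed the threshold and was among the largest of the lists. It was 1.02 for Gpx3 (adjusted p = 6.00e-05), 0.66 for Mafk (adjusted p = 0.0207), -2.85 for Gsta3 (adjusted p = 0.00705), -2.21 for Blvrb (adjusted p = 0.00114), -1.90 for Prdx6 (adjusted p = 0.00169) and -1.79 for Abcc1 (adjusted p = 0.00707). Groups of 3 libraries are too small to test single libraries as outliers.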

How the results depend on the processing

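Over all tested genes, limma called 1170 genes for the knockout label in osteogenic medium, 4276 in adipogenic medium, 2630 for the interaction and 4054 for the medium. TPM scaling, which gives all libraries one total, gave 509 and 2440 for the first and the last, and fitting only the 6 libraries compared gave 3418 in osteogenic and 1671 in adipogenic medium. Leaving out both divergent adipogenic libraries, control 2 and knockout 1, a choice made after seeing the data, gave 3577, 6692, 5902 and 6610 calls. Leaving out each library in turn gave 532 to 2854, 2791 to 6569, 1798 to 5434 and 2937 to 6647 calls, and in all 4 the highest count came without control adipogenic library 2. With TPM scaling the median log2 fold change of all genes moved to 0.16 in adipogenic medium and 0.18 for the interaction, and the share of calls that were higher went from 50.4% to 78.3% and from 53.1% to 74.8%. The replicate block had the label numbers as a term, within each medium for genotype and interaction and within each genotype for the medium. It gave 744 calls in osteogenic medium, 3889 in adipogenic medium, 2176 for the interaction and 3179 for the medium. Correlations of same-numbered libraries, taken on deviations from the group means, were -0.04, 0.06 and -0.03 between genotypes in osteogenic medium. They were 0.47, 0.40 and -0.29 in adipogenic medium. Between the media they were -0.06, 0.09 and 0.04 in control and 0.03, -0.01 and -0.02 in knockout cells. With 3 libraries in a group and 2 divergent adipogenic libraries, these values cannot decide whether the numbers pair the libraries. Under the block the medium effect of Gclm and the osteogenic calls of Txnrd3, Ugdh, Mafg and Taldo1 were lost. The cause of these shifts was not tested.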
